A study of Mus musculus with 12 samples.

Results

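The WNT genes described here are 56 genes of 24541 in the deposited expression table of mouse epididymal adipocytes. They were chosen by name: the Wnt and Frizzled (Fzd) genes, the co-receptors Lrp5 and Lrp6, Sfrp1 to Sfrp4, Dkk1 to Dkk4, the R-spondins Rspo1 to Rspo4 with their receptors Lgr4 to Lgr6, Frzb, Wif1, Notum, the secretion genes Porcn and Wls, and Ctnnb1, Axin2, Tcf7, Tcf7l1, Tcf7l2 and Lef1. The rule itself used names and no measured value, but it was set with earlier results of these data known. The 56 genes hold 101 of the table's 36779 transcripts, and 43 of them have 1 transcript each.

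WNT proteins are secreted lipid-modified signals. Porcn attaches the lipid and Wls carries the protein to the cell surface, where it meets a Frizzled receptor and, in the canonical branch, the co-receptors Lrp5 and Lrp6. The signal keeps beta-catenin (Ctnnb1) from being broken down, and beta-catenin then acts with TCF/LEF factors on target genes, among them Axin2, a feedback inhibitor. Secreted proteins of the SFRP, DKK and WIF families hold WNT signals back, and R-spondins with LGR receptors strengthen them. In fat tissue canonical WNT signals, Wnt10b above all, are known to keep precursor cells from becoming adipocytes, while Wnt5a and Wnt11 act mostly through branches without beta-catenin.

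RNA of primary adipocytes from the epididymal fat of C57BL/6N mice was sequenced in 12 libraries, 3 in each of 4 groups. The groups were old (18 months) mice with an adipocyte-specific Crtc2 knockout (old AKO), old mice with floxed Crtc2 that the labels call WT (old WT), and the same genotypes at 3 months (young AKO and young WT). Crtc2 is a coactivator of the cyclic AMP factor CREB. The Cre driver of the knockout is not given in the sources used here, nor is it said whether the libraries of a group are from different mice, so p-values measure only the spread among libraries.

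Libraries held 45935795 to 61125366 estimated reads. All 12 adipocyte markers were detected in every library, with a summed level of 55530 to 58540 CPM (reads scaled to library size and composition) in old AKO, 34630 to 45030 in old WT, 52110 to 75650 in young AKO and 61240 to 69380 in young WT. Crtc2 went against the labels: it had 151, 161 and 154 CPM in old libraries labelled AKO, against 45.3, 51.6 and 49.97 in old WT, and 164, 300 and 280 CPM in young libraries labelled AKO, against 53.9, 67.2 and 79.5 in young WT. The log2 difference was 1.66 ± 0.21 (SE) at 18 months (adjusted p = 0.0125, edgeR quasi-likelihood test) and 1.89 ± 0.21 at 3 months (adjusted p = 0.0073, edgeR). AKO and WT below therefore mean the libraries as labelled. Whether the genotype labels are exchanged was not tested. If they were, every genotype difference below would have the opposite sign, and each age comparison would belong to the other genotype. The old difference had an adjusted p of 0.074 without old AKO replicate 2 and of 0.0694 without replicate 3 (edgeR). Old WT replicate 3 lay at -99.9 on the first principal component of all genes, with its group mates at -68.5 and -64.7, and young WT replicate 1 lay at 21.5 on the second, with its group mates at -44.3 and -41.4. Both libraries stand apart from their groups.

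Of the 56 genes, 36 had enough reads to be tested. Not tested were 9 of 19 ligands, 2 of 12 receptors and co-receptors, 4 of 7 R-spondins and LGR receptors, 4 of 10 antagonists and Lef1. Among these 20 genes, Dkk4, Wnt16, Wnt3a, Wnt7a and Wnt8a had 0 reads in all 12 libraries. Another 14 had at most 50 reads over all libraries (Dkk1, Frzb, Fzd10, Lef1, Lgr5, Lgr6, Notum, Rspo2, Rspo4, Wnt1, Wnt10a, Wnt2, Wnt3 and Wnt7b), and Fzd9 had 61. The highest value any of the 20 reached in a library was 0.246 CPM, for Wnt3. Of the 36 tested, 7 reached the filter of 0.184 CPM in 3 libraries only through the old libraries (Tcf7, Wif1, Wnt10b, Wnt4, Wnt6, Wnt8b and Wnt9b), so counts and medians over the 36 lean towards genes higher in old libraries. Low values cannot be read as absence from adipocytes or as absence from the fat pad.

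Fzd4, Ctnnb1, Lrp5, Lrp6, Lgr4 and the secretion genes Wls and Porcn had higher mean levels than any ligand. Of the Frizzled genes, only Fzd4 and Fzd1 did. On the FPKM scale, which corrects for transcript length and allows genes to be compared, the Frizzled receptor Fzd4 had the highest mean level of the 56 genes, 119 FPKM, with a range over libraries of 76.2 to 163. Fzd4 made up 84.5% of the summed FPKM of all Frizzled genes. The next Frizzled genes were Fzd1 with a mean of 7.86 FPKM, Fzd5 with 3.81, Fzd7 with 3.57 and Fzd8 with 3.14, and the ranges over libraries of neighbours in that order overlapped. Beta-catenin (Ctnnb1) averaged 113 FPKM, the carrier Wls 38.8, the co-receptors Lrp5 25.2 and Lrp6 12.5, the R-spondin receptor Lgr4 12.2 and the acyltransferase Porcn 11.9 FPKM. Levels of Lrp6, Lgr4 and Porcn overlapped across libraries, as did those of Fzd4 and Ctnnb1.

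Among ligands, Wnt5a had the highest level, 5.24 FPKM on average, and made up 39.6% of the summed ligand FPKM. Averaged over all 12 libraries, Wnt11 had 2.74, Wnt9a 1.85, Wnt5b 1.69 and Wnt2b 1.41 FPKM, and the ranges of these 4 overlapped. Their order differed by group: Wnt2b (2.695 FPKM) had a higher mean than Wnt5b (2.06) and Wnt9a (2.04) in old WT, and Wnt9a (1.61) a higher one than Wnt11 (1.16) in young AKO. Wnt10b, Wnt8b, Wnt4, Wnt6 and Wnt9b were tested but averaged under 0.1 FPKM each. Among antagonists, Sfrp1 averaged 3.38 FPKM and made up 55.0% of the class, ahead of Sfrp2 (1.34) and Sfrp4 (0.871), and the libraries of all 3 overlapped because their levels differed widely by age. One transcript carried most reads of several genes: variant 1 held 99.1% of Ctnnb1 reads, 97.7% of Wnt5a reads, 90.3% of Wls reads and 86.8% of Wnt5b reads, and variant a held 80.6% of Porcn reads. Reads of Tcf7l2, a TCF factor, were spread over 25 listed transcripts, the largest with 13.9%.

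**Figure D1:**
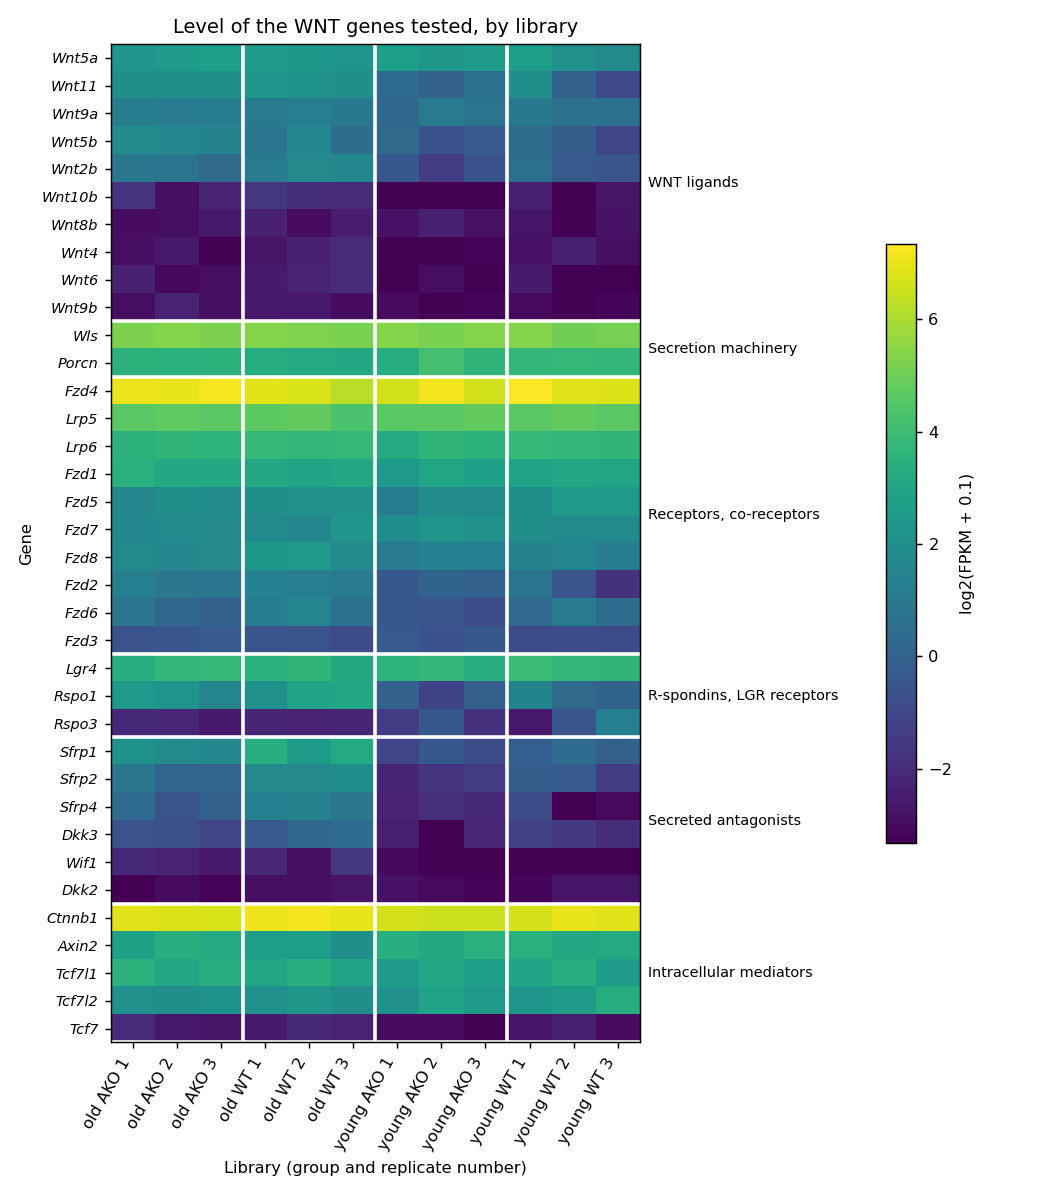
Level of the 36 WNT genes tested in each of the 12 libraries, as log2(FPKM + 0.1) in colour, with genes in rows by role and libraries in columns by group. Fzd4 and Ctnnb1 are the brightest rows in every library, and the antagonist rows Sfrp1, Sfrp2 and Sfrp4 are brighter in the 6 old libraries than in the 6 young ones.

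Several secreted antagonists were higher in old libraries of both genotypes. In WT, 10 of the 36 genes tested changed between 18 and 3 months, beside 22.9% of all genes tested: Sfrp1, Sfrp2, Sfrp4, Wif1, Rspo1, Wnt2b and Fzd8 were higher in old WT (14.2% of all genes were called higher), and Axin2, Porcn and Rspo3 were lower (8.73% of all genes). In AKO, 9 of 36 changed, beside 18.4% of all genes: Sfrp1, Sfrp2, Dkk3, Wif1, Rspo1, Wnt2b, Wnt5b and Wnt10b were higher in old AKO (10.4% of all genes), and Fzd7 was lower (7.93%). Sfrp1, Sfrp2, Wif1, Rspo1 and Wnt2b were higher in both comparisons, which share no libraries. These are 5 of 36 genes (13.9%), beside 9.92% of all genes called in both comparisons in the same direction. Wif1 and, in AKO, Wnt10b were tested only because old libraries carried them over the filter, so their calls add nothing to these counts. Among the 27 WNT genes with a mean of at least 1 CPM over all libraries, 6 were called in AKO (22.2%, beside 17.4% of all such genes) and 10 in WT (37.0%, beside 26.3%), with Lgr4 and Tcf7l2 newly called lower in WT and Fzd7 no longer called in AKO. The median log2 difference of the 27 was 0.32 in AKO and 0.05 in WT, against 0.003 and -0.03 for all such genes. A mean over all libraries can also lean towards genes higher in old libraries. Sfrp4 averaged 0.28 and 0.29 CPM in young AKO and young WT, and Dkk3 0.27 and 0.86, both under 1 CPM. The WT count was 6 without old WT replicate 3 and 4 without young WT replicate 3, and the AKO count was 3, 4 and 4 without old AKO replicates 1, 2 and 3, and 5 and 3 without young AKO replicates 2 and 3. Over all genes the WT count was 1886 and 1511 in these fits, against 3451 with all libraries. The AKO count over all genes was 732, 1213, 1506, 2238 and 833, in the same order, against 2766. When both libraries that stand apart were omitted, 13 WNT genes were called in each genotype. Over all 15290 genes of that fit, 4100 were called in AKO and 3641 in WT.

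Of the 6 antagonists tested, 4 passed the test in AKO and 4 in WT, all higher, beside 18.4% and 22.9% of all genes called in either direction. Wif1 is 1 of the 4 in each genotype, and it was tested only through its old libraries. The most abundant was Sfrp1 (chromosome 8, 23411502 to 23449632, mm10), a soluble Frizzled-related protein that binds WNT proteins. Sfrp1 had 18.6, 14.9 and 13.4 CPM in old AKO, 43.8, 23.2 and 37.1 in old WT, 1.78, 3.18 and 2.26 in young AKO, and 3.66, 5.41 and 4.01 in young WT. Every old library exceeded every young one. On the log2 scale the difference was 2.70 ± 0.28 in old AKO against young AKO (adjusted p = 0.00071, edgeR) and 2.99 ± 0.28 in old WT against young WT (adjusted p = 0.000452, edgeR).

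Sfrp2 (chromosome 3, 83766321 to 83774314), of the same family, had 3.58, 2.05 and 2.05 CPM in old AKO, 5.93, 5.93 and 6.60 in old WT, 0.275, 0.480 and 0.625 in young AKO, and 1.63, 1.51 and 0.579 in young WT. Again no old library overlapped a young one. Sfrp2 differed by 2.46 ± 0.42 in AKO (log2, adjusted p = 0.00585, edgeR) and by 2.31 ± 0.40 in WT (adjusted p = 0.00567, edgeR). The calls of Sfrp1 and Sfrp2 in both genotypes held under every alternative run, including each library left out in turn.

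Sfrp4 (chromosome 13, 19623175 to 19632823) was much rarer in young libraries. It had 2.13, 1.03 and 1.58 CPM in old AKO, 4.07, 4.36 and 2.93 in old WT, 0.212, 0.340 and 0.276 in young AKO, and 0.824, 0 and 0.0373 in young WT. The young WT value rested on replicate 1, one of the libraries that stand apart. The log2 difference in WT was 3.73 ± 0.98 (adjusted p = 0.0215, edgeR), with an adjusted p of 0.000317 without young WT replicate 1 and of 0.0667 without young WT replicate 3. In AKO it was 2.51 (adjusted p = 0.0875, edgeR), which passed without young WT replicate 1 (adjusted p = 0.00354, edgeR) although no library of that comparison was omitted. The cause was not tested.

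Wif1 (chromosome 10, 121034004 to 121100642), which binds WNT proteins directly, was near the limit of detection. It had 18, 15 and 9 reads in old AKO, 17, 4 and 23 in old WT, 2, 0 and 0 in young AKO, and 0 in all 3 young WT libraries. Old WT was at least 13.4-fold higher than young WT, set against a floor of 3 reads over the young WT group, which covers counting error only (adjusted p = 0.0141, edgeR). In AKO the adjusted p was 0.0414, and it passed 0.05 no longer without any 1 of the old AKO libraries, without young AKO replicate 2 or 3, or without old WT replicate 1 (up to 0.133).

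Dkk3 (chromosome 7, 112116019 to 112159057), a divergent member of the Dickkopf family, had 1.85, 1.79 and 1.26 CPM in old AKO, 2.23, 3.59 and 3.85 in old WT, 0.339, 0 and 0.459 in young AKO, and 1.12, 0.866 and 0.579 in young WT. Old exceeded young without overlap in each genotype. In log2 terms Dkk3 differed by 2.60 ± 0.73 in AKO (adjusted p = 0.0329, edgeR) and 1.91 in WT, which did not pass (adjusted p = 0.0626, edgeR). The AKO call was lost without any 1 of the old AKO libraries and without young AKO replicate 1 or 3, with adjusted p up to 0.0976. Dkk2, the other antagonist tested, had at most 0.207 CPM in any library and was not called in any comparison.

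The R-spondins split. Rspo1 (chromosome 4, 124986430 to 125009099), a secreted enhancer of WNT signals, had 9.49, 8.33 and 5.10 CPM in old AKO, 7.05, 12.02 and 13.2 in old WT, 1.86, 0.680 and 1.73 in young AKO, and 5.12, 2.22 and 1.87 in young WT. Young WT replicate 1 was the highest young library, and groups did not overlap by age within a genotype. Rspo1 had a log2 difference of 2.42 ± 0.48 in AKO (adjusted p = 0.0101, edgeR) and 1.81 ± 0.46 in WT (adjusted p = 0.0198, edgeR). The WT call was lost without old WT replicate 3 (adjusted p = 0.0608, edgeR) and without young WT replicate 2 or 3 (up to 0.0751), while the AKO call held under every alternative run.

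Rspo3 (chromosome 10, 29453107 to 29535867) went the other way and was called in WT only. It had 0.312, 0.306 and 0.168 CPM in old AKO, 0.279, 0.250 and 0.258 in old WT, 0.720, 1.74 and 0.515 in young AKO, and 0.161, 1.53 and 5.92 in young WT. Young WT replicate 1 lay below every old WT library, so the WT groups overlapped, and the young WT libraries spanned a wide range. In AKO every old library lay below every young one. The log2 difference of Rspo3 was -3.26 ± 0.97 in WT (adjusted p = 0.0347, edgeR) and -1.91 in AKO (adjusted p = 0.174, edgeR). The AKO difference was called in 2 of 21 alternatives. The WT call was lost in 10 of 21 alternatives, among them the omission of young WT replicate 3 (log2 difference -1.68, adjusted p = 0.195, edgeR), of any 1 of the old WT libraries (up to 0.0955) and of old AKO replicate 2 (0.051). Lgr4, the LGR receptor with most reads, had 51.8, 67.2 and 72.3 CPM in old AKO, 52.8, 60.1 and 41.9 in old WT, 66.3, 72.6 and 56.3 in young AKO, and 80.8, 66.3 and 67.4 in young WT. Over the 36 genes tested it was not called in any comparison. Old WT lay below young WT without overlap (log2 difference -0.47, adjusted p = 0.0607, edgeR). With only genes of a mean of at least 1 CPM in the fit, Lgr4 was called lower in old WT.

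**Figure D2:**
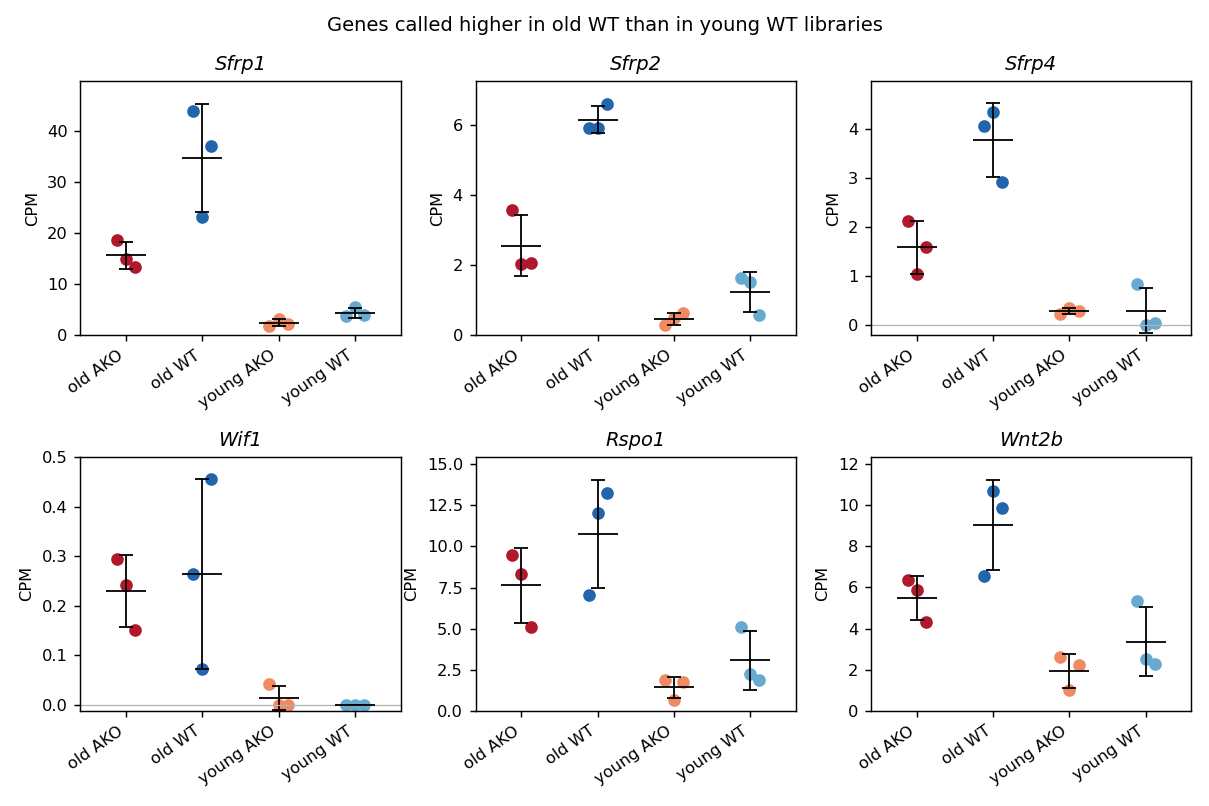
CPM of the 6 WNT genes other than Fzd8 that were called higher in old WT than in young WT, with a point per library, a line for the mean of 3 libraries and bars for the SD. For Sfrp1 and Sfrp2 every old library lies above every young one, and young WT replicate 1 is the highest young library for Sfrp4, Rspo1 and Wnt2b.

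Of the 10 ligands tested, 3 were called higher with age in AKO (30.0%, beside 10.4% of all genes) and 1 in WT (10% beside 14.2%). Wnt10b, Wnt4, Wnt6, Wnt8b and Wnt9b were tested only through their old libraries. The ligands tested therefore lean towards genes higher with age, and their shares cannot be weighed against those of all genes. Wnt10b is 1 of the 3 called in AKO. Wnt2b (chromosome 3, 104944805 to 104961709), a canonical ligand, had 6.35, 5.86 and 4.31 CPM in old AKO, 6.55, 10.7 and 9.87 in old WT, 2.62, 1.02 and 2.21 in young AKO, and 5.33, 2.505 and 2.28 in young WT. Old and young did not overlap within a genotype, though young WT replicate 1 came close to the lowest old WT library. Old exceeded young by a log2 difference of 1.498 ± 0.40 in AKO (adjusted p = 0.0286, edgeR) and 1.42 ± 0.39 in WT (adjusted p = 0.027, edgeR). The AKO call was lost without old AKO replicate 1 or 2 or young AKO replicate 2 or 3, and the WT call without old WT replicate 2 or 3 or young WT replicate 2 or 3, with adjusted p up to 0.098.

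Wnt5b (chromosome 6, 119432531 to 119544347) had 7.85, 7.05 and 6.06 CPM in old AKO, 3.91, 6.91 and 2.95 in old WT, 3.07, 1.42 and 1.99 in young AKO, and 3.15, 1.90 and 0.915 in young WT. Old AKO lay above young AKO without overlap, and old WT overlapped young WT. The log2 difference was 1.70 ± 0.45 in AKO (adjusted p = 0.028, edgeR) and 1.21 in WT (adjusted p = 0.0737, edgeR). The AKO call was lost without any 1 of the old AKO libraries and without young AKO replicate 2 or 3 (up to 0.0964). The WT difference passed without young WT replicate 1 (1.70, adjusted p = 0.0218, edgeR).

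Wnt10b (chromosome 15, 98771752 to 98778150), the best known anti-adipogenic ligand, was close to the detection limit. It had 27, 5 and 14 reads in old AKO, 30, 20 and 15 in old WT, 0 in all 3 young AKO libraries, and 11, 0 and 7 in young WT. Old AKO was at least 12.8-fold higher than young AKO, against a floor of 3 reads over the young AKO group (adjusted p = 0.0286, edgeR). This call was lost without old AKO replicate 1 or 3 and without any 1 of the young AKO libraries (up to 0.093). Its neighbour Wnt1, on the same chromosome, was among the genes with at most 50 reads over all libraries.

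Wnt11 and Wnt5a, the ligands with the highest levels, were not called. Wnt11 had 10.2, 10.3 and 10.6 CPM in old AKO, 12.4, 11.4 and 9.61 in old WT, 3.68, 2.68 and 4.25 in young AKO, and 10.8, 2.64 and 1.25 in young WT. The 6 old libraries were alike, and among the young ones only young WT replicate 1 was in their range. The log2 difference was 1.55 in AKO (adjusted p = 0.0838, edgeR) and 1.18 in WT (adjusted p = 0.155, edgeR), and without young WT replicate 1 it was 1.55 (adjusted p = 0.0033) and 2.52 (adjusted p = 0.00093). Wnt5a had 19.8, 24.6 and 28.3 CPM in old AKO, 23.9, 20.7 and 18.2 in old WT, 29.9, 23.3 and 28.5 in young AKO, and 28.5, 17.8 and 14.9 in young WT, with all 4 groups overlapping.

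Of the 10 receptors and co-receptors tested, 1 was called with age in AKO and 1 in WT, which is 10% in each beside 18.4% and 22.9% of all genes. Of the 2 secretion genes, Porcn was called, in WT. Fzd4 had 468, 466 and 550 CPM in old AKO, 424, 360 and 260 in old WT, 398, 566 and 412 in young AKO, and 623, 420 and 420 in young WT. Old WT replicate 3 was the lowest and young WT replicate 1 the highest of the 12, and Fzd4 was not called in any comparison. Fzd8 had 10.9, 10.0 and 10.6 CPM in old AKO, 16.0, 17.2 and 9.93 in old WT, 7.51, 8.98 and 8.71 in young AKO, and 9.04, 9.93 and 7.78 in young WT. Replicates 1 and 2 of old WT were the highest of the 12, and replicate 3 stood at the level of the highest young WT library. The log2 difference of Fzd8 was 0.69 ± 0.19 in WT (adjusted p = 0.0246, edgeR), lost without old WT replicate 1 or 2 or young WT replicate 3 (up to 0.0968), and 0.32 in AKO (adjusted p = 0.242, edgeR).

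Fzd7 (chromosome 1, 59482147 to 59486955) was lower in old AKO, with 14.3, 15.8 and 15.2 CPM, against 19.0, 23.9 and 22.3 in young AKO. It had 15.0, 13.6 and 20.4 CPM in old WT, against 18.9, 15.7 and 16.5 in young WT, which overlapped. The AKO difference was -0.52 ± 0.15 on the log2 scale (adjusted p = 0.0361, edgeR), lost in 10 of 22 alternatives, among them the omission of any 1 old AKO library, of young AKO replicate 2 or 3 and of old WT replicate 1 (up to 0.127). The co-receptor Lrp5 had 125, 138 and 128 CPM in old AKO, 124, 135 and 96.0 in old WT, 137, 139 and 160 in young AKO, and 132, 146 and 132 in young WT, and was not called.

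Porcn (chromosome X, 8193846 to 8206525) had 21.3, 21.2 and 21.8 CPM in old AKO, 17.6, 16.9 and 15.1 in old WT, 20.5, 37.7 and 26.6 in young AKO, and 25.7, 26.4 and 26.8 in young WT. Old WT lay below young WT without overlap, while old AKO fell within the young AKO range. Porcn had a log2 difference of -0.67 ± 0.17 in WT (adjusted p = 0.0209, edgeR) and -0.40 in AKO (adjusted p = 0.125, edgeR). The WT call was lost without old WT replicate 3 and without young WT replicate 2 or 3 (up to 0.0664). Porcn became called in AKO without young AKO replicate 1, the young AKO library at the old level (log2 difference -0.59, adjusted p = 0.0234, edgeR). Wls had 100, 115 and 101 CPM in old AKO, 105, 99.0 and 92.5 in old WT, 124, 108 and 126 in young AKO, and 117, 89.3 and 101 in young WT, with no call.

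Axin2 (chromosome 11, 108920349 to 108950781), the feedback inhibitor and target gene, fell with age in WT. It had 28, 43.6 and 38.8 CPM in old AKO, 25.2, 25.1 and 15.2 in old WT, 49.8, 40.5 and 52.6 in young AKO, and 48.8, 37.3 and 40.6 in young WT. Old WT lay below all other libraries, and the old and young AKO groups overlapped. With age the log2 difference was -0.95 ± 0.22 in WT (adjusted p = 0.013, edgeR), a call that held under every alternative run, with values of -0.65 to -1.12. In AKO it was -0.37 (adjusted p = 0.244, edgeR), and the difference between the genotypes in this change was not called. Ctnnb1 had 408, 398 and 378 CPM in old AKO, 458, 484 and 413 in old WT, 404, 361 and 381 in young AKO, and 384, 463 and 437 in young WT, with no call.

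**Figure D3:**
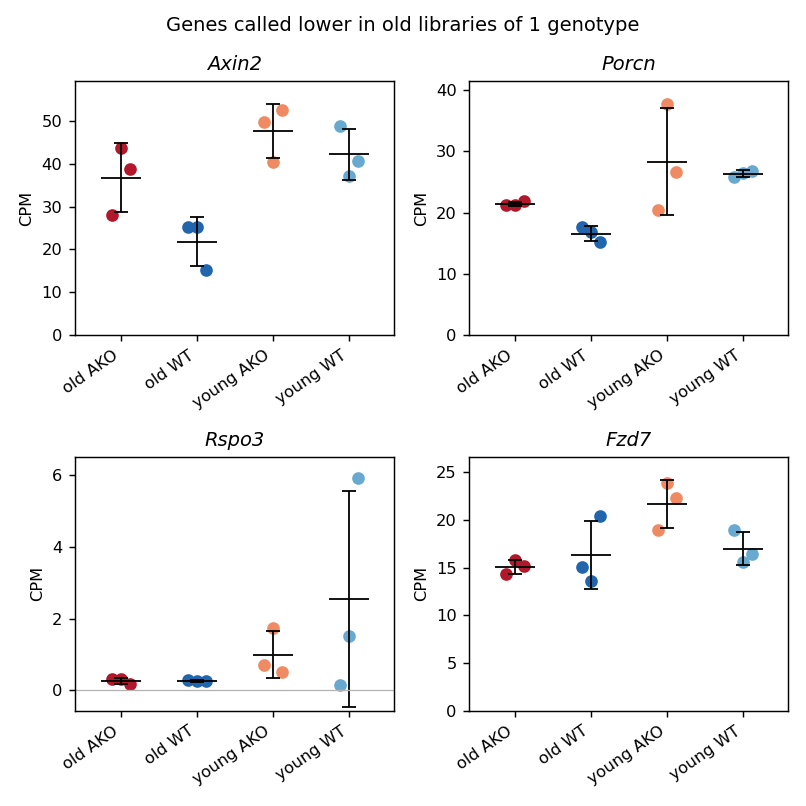
CPM of Axin2, Porcn, Rspo3 and Fzd7, with a point per library, a line for the mean of 3 libraries and bars for the SD. Old WT lies below all other groups for Axin2 and Porcn, Rspo3 in young WT ranges from 0.161 to 5.92 CPM, and Fzd7 is lower in old AKO than in young AKO.

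**Figure D4:**
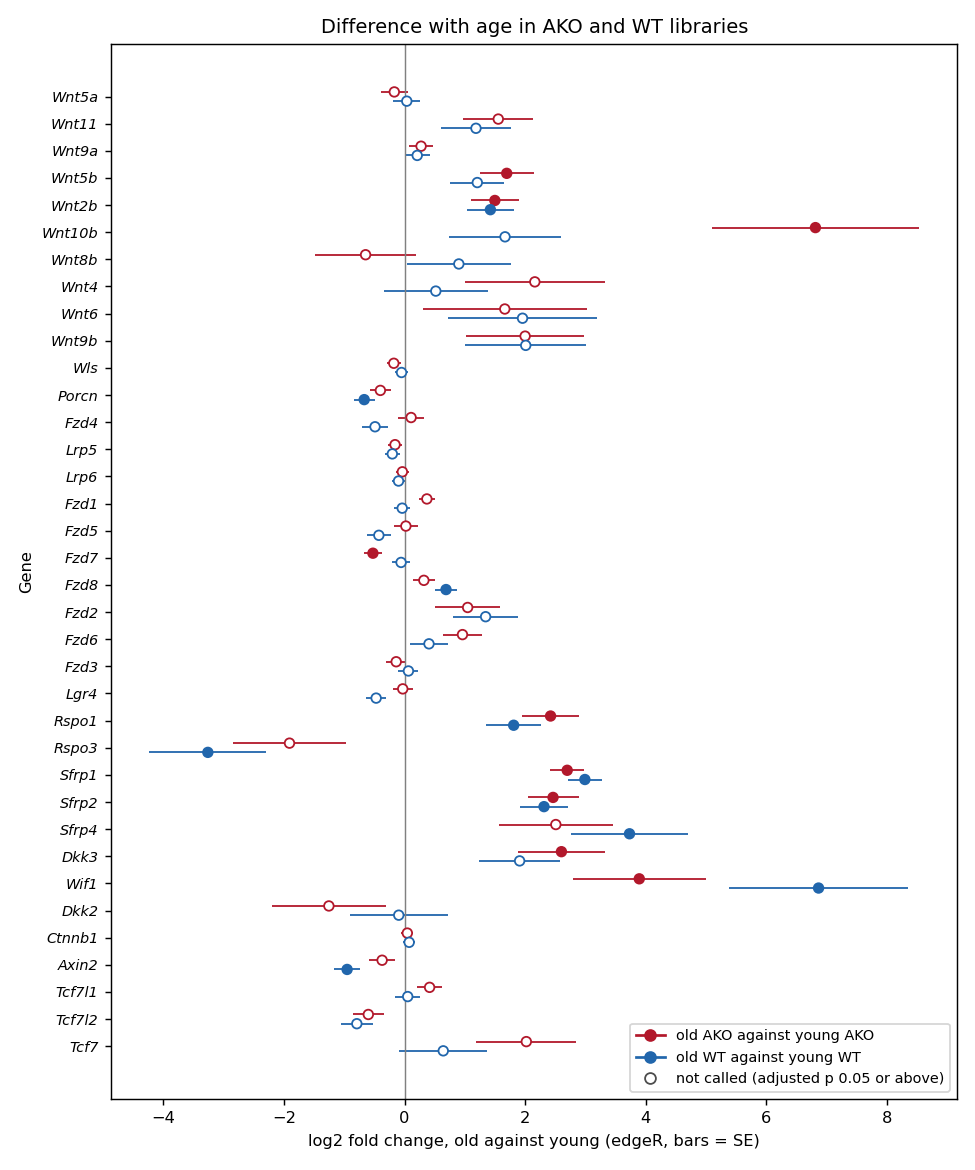
Log2 difference of old against young for the 36 genes tested, in AKO (red) and WT (blue), with bars for the SE and filled points for an adjusted p under 0.05 (edgeR). The antagonists Sfrp1 and Sfrp2 and the enhancer Rspo1 are filled in both genotypes, and Axin2 is filled in WT with a log2 difference of -0.95. The Wif1 and Wnt10b points set against groups at 0 reads depend on the fit and are not fold changes to be read as sizes.

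Upstream sequences are shown for Sfrp2, Rspo1 and Wnt2b, which were called higher with age in both genotypes. Wif1 was also called in both, but was tested only through its old libraries. Axin2 is a known TCF target that fell in WT. Wnt11 was not called with age and is shown as the tested member with a TCF/LEF match. Each sequence is the 250 bases before the RefSeq transcript start on the gene's own strand (GRCm38.p6). They lie at chr3:83766071-83766320 (plus strand, Sfrp2), chr4:124986180-124986429 (plus, Rspo1), chr3:104961710-104961959 (minus, Wnt2b), chr10:121033754-121034003 (plus, Wif1), chr11:108920099-108920348 (plus, Axin2) and chr7:98834862-98835111 (plus, Wnt11). Capitals mark the searched motifs on either strand: TCF/LEF (CTTTGAT or CTTTGAA), the CRE of CREB (TGACGTCA), the GC box (GGGCGG) and the TATA box (TATAAA).
Sfrp2: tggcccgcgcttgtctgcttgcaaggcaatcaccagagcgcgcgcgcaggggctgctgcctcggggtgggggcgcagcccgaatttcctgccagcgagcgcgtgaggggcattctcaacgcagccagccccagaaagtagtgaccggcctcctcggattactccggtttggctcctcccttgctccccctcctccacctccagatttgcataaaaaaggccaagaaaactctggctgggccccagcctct
Rspo1: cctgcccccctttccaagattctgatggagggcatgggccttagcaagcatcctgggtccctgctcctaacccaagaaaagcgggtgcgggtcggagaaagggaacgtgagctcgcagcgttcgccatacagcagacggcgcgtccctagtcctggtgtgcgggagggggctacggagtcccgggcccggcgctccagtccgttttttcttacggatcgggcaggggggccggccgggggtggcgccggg
Wnt2b: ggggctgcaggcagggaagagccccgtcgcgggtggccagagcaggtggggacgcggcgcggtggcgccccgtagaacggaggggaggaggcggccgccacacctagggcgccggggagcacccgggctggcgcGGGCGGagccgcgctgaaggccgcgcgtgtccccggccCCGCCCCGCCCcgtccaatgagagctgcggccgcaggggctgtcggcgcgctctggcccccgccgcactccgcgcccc
Wif1: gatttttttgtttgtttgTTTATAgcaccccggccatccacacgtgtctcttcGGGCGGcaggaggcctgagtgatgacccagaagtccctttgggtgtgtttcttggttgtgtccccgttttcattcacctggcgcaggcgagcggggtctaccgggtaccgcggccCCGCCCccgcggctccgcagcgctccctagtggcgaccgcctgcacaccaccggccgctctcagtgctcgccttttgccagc
Axin2: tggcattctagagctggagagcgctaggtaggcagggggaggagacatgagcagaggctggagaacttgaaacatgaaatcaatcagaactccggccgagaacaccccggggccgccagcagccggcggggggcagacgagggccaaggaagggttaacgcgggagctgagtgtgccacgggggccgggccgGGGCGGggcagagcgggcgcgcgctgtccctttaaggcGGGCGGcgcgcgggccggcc
Wnt11: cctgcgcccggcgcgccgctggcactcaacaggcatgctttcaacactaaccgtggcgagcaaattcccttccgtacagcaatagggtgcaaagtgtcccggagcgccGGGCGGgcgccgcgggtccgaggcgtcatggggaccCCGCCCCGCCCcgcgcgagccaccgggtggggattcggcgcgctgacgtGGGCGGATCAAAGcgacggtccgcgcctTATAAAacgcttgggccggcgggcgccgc
Sfrp2 and Rspo1 held none of these motifs, Wnt2b held 3 GC boxes, Axin2 held 2, Wif1 held 2 and the TATA letters on the opposite strand, and Wnt11 held 4 GC boxes, the TATA letters and 1 TCF/LEF match that adjoins a GC box. Neighbouring GC boxes share a base in Wnt2b and in Wnt11. RefSeq windows were at hand for 37 of the 56 genes. A TCF/LEF match was found in 2 of the 37 (Dkk1 and Wnt11), against 7.48% of 32851 windows of all genes. A CRE was found in 0 of the 37, against 1.55% of all windows, a GC box in 29, against 32.7%, and a TATA box in 5, against 12.4%. A match is a run of letters and not a shown binding site, and the windows say nothing of sites elsewhere.

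Between genotypes, Sfrp1 was the single WNT gene that passed the edgeR test. At 18 months 1 of 36 genes was called, beside 5.95% of all genes, with 0.796% of all genes higher and 5.16% lower in old AKO. Sfrp1 had a log2 difference of -1.15 ± 0.26 in old AKO against old WT (adjusted p = 0.0305, edgeR), and the libraries given above did not overlap. The call was lost without any 1 of the old AKO libraries and without old WT replicate 1 or 3 (up to 0.149), with only the 6 old libraries in the fit and with the replicate number as a block, 8 of 22 alternatives in all, while under every alternative run the difference lay between -1.33 and -0.91. With both libraries that stand apart omitted, 1 WNT gene was called again, beside 512 of 15290 genes in all, but it was Fzd8 and not Sfrp1. Sfrp2 differed by -1.26 ± 0.39 without overlap but did not pass (adjusted p = 0.0825, edgeR). It passed in 5 of 22 alternatives: DESeq2 (0.0143), limma-voom (0.0334), both FPKM fits (0.0137 and 0.0465, limma) and the fit without young WT replicate 3 (0.0393, edgeR). Axin2 differed by 0.75 ± 0.22, with every old AKO library above every old WT library, and did not pass (adjusted p = 0.0689, edgeR), though DESeq2 called it. Fzd4 differed by 0.51 ± 0.21 (adjusted p = 0.195, edgeR), also without overlap. An unadjusted p under 0.05 was reached by 5 of 36 genes (13.9%), against 22.03% of all genes.

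At 3 months 0 of 36 genes were called in young AKO against young WT by edgeR, beside 0.976% of all genes (0.186% higher and 0.79% lower). DESeq2 called 6 (Fzd3, Fzd5, Fzd6, Sfrp1, Sfrp2 and Wnt10b), beside 1365 of 15068 genes in all. An unadjusted p under 0.05 was reached by 10 of 36 (27.8%), against 19.5% of all genes. The smallest adjusted p was that of the receptor Fzd6, 0.0785 (edgeR), a gene named here after its values were seen. Fzd6 had 3.01, 2.72 and 2.11 CPM in young AKO, against 4.94, 8.12 and 5.21 in young WT, without overlap. Sfrp1 differed by -0.86 ± 0.28 without overlap (adjusted p = 0.124, edgeR), and Sfrp2 by -1.42 ± 0.42 with overlap (adjusted p = 0.103, edgeR). When young WT replicate 1 was omitted together with old WT replicate 3, 3 WNT genes were called (Fzd6, Sfrp4 and Wnt5a), beside 856 of 15290 genes in all.

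The genotype effect was not shown to depend on age. By edgeR, 0 of 36 genes were called for the difference of the genotype effects between 18 and 3 months, beside 0.00664% of all genes, the smallest adjusted p was 0.524, and 1 gene (Wnt10b) had an unadjusted p under 0.05. DESeq2 also called 0, beside 57 of 15068 genes. The genes that edgeR called with age in 1 genotype and not in the other, such as Axin2, Porcn, Fzd7 and Wnt5b, were therefore not shown to differ between genotypes.

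Markers of adipocytes and of other cells also differed between groups. Of the 12 adipocyte markers, 6 were lower in old WT than young WT (Adrb3, Cfd, Lipe, Plin1, Pnpla2 and Retn). With age in AKO 0 of the 12 were called, and 8 had log2 differences below 0. In old AKO against old WT, 3 were higher (Adrb3, Plin1 and Slc2a4). The summed level of Sfrp1, Sfrp2 and Sfrp4 was 17.1 to 24.3 CPM in old AKO, 33.4 to 53.8 in old WT, 2.27 to 3.998 in young AKO and 4.63 to 6.91 in young WT. The 9 mesothelial markers analysed, all detected in every library, summed to 68.2 to 145 CPM in old AKO, 127 to 198 in old WT, 22.4 to 38.4 in young AKO and 44.1 to 106 in young WT, with the 106 in replicate 1. Of these 9, 8 were higher in old AKO than young AKO and 4 higher in old WT than young WT, and all 9 had log2 differences below 0 in old AKO against old WT without being called. The 10 stromal progenitor and fibroblast markers, also all detected, summed to 952 to 1051 CPM in old AKO, 1043 to 1254 in old WT, 663 to 1521 in young AKO and 642 to 1123 in young WT. Although the sums overlap, 7 of 10 were higher with age in AKO and 8 of 10 in WT, and 3 (Cd248, Clec3b and Pdgfra) were lower in old AKO than old WT.

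Macrophage markers summed to 354 to 496 CPM in old AKO, 1044 to 4227 in old WT, 175 to 235 in young AKO and 288 to 417 in young WT. All 10 were lower in old AKO than old WT and higher in old WT than young WT, and 5 were higher in old AKO than young AKO. Endothelial markers summed to 689 to 1041 CPM in old AKO, 889 to 1592 in old WT, 380 to 538 in young AKO and 590 to 1105 in young WT, with 7 of 10 higher with age in AKO and 1 of 10 in WT. Smooth muscle and pericyte markers summed to 597 to 751 CPM in old AKO, 655 to 1163 in old WT, 261 to 443 in young AKO and 510 to 679 in young WT, with 3 of 10 higher with age in AKO. T cell markers summed to 2.05 to 3.96 CPM in old AKO, 8.64 to 60.7 in old WT, 1.36 to 1.84 in young AKO and 3.099 to 4.35 in young WT, and Il7r alone reached 54.01 CPM in an old WT library. Of the 6 T cell markers tested, Cd2, Cd3g and Il7r were higher in old WT than young WT, Cd3g and Cd4 were higher in old AKO than young AKO, and Cd2 and Il7r were lower in old AKO than old WT. The defining marker Cd3d was at 0 in 10 libraries, and Cd2, Cd4, Il7r and Ccr7 were at 0 in none. Epididymal markers summed to 0.101 to 0.242 CPM in old AKO, 0.375 to 3.03 in old WT, 0.160 to 0.233 in young AKO and 0.392 to 7.93 in young WT. Crisp1 was at 0 in every AKO library and reached 2.68 CPM in old WT and 7.65 in young WT, while Lcn5, Lcn8 and Spint4 were at 0 in all 12 libraries. In young AKO against young WT, Cldn15, Cd248, Cd34 and Tagln were called lower, and all 9 mesothelial, 10 endothelial, 10 macrophage and 6 T cell markers tested had log2 differences below 0. Below 0 were also 8 of 10 progenitor and fibroblast markers, 9 of 10 smooth muscle and pericyte markers and 5 of 12 adipocyte markers. Over all genes 7292 of 15068 lay below 0. The part of any of these cells in the WNT results was not tested, and in bulk RNA fewer cells of a type and less RNA per cell cannot be told apart.

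**Figure D5:**
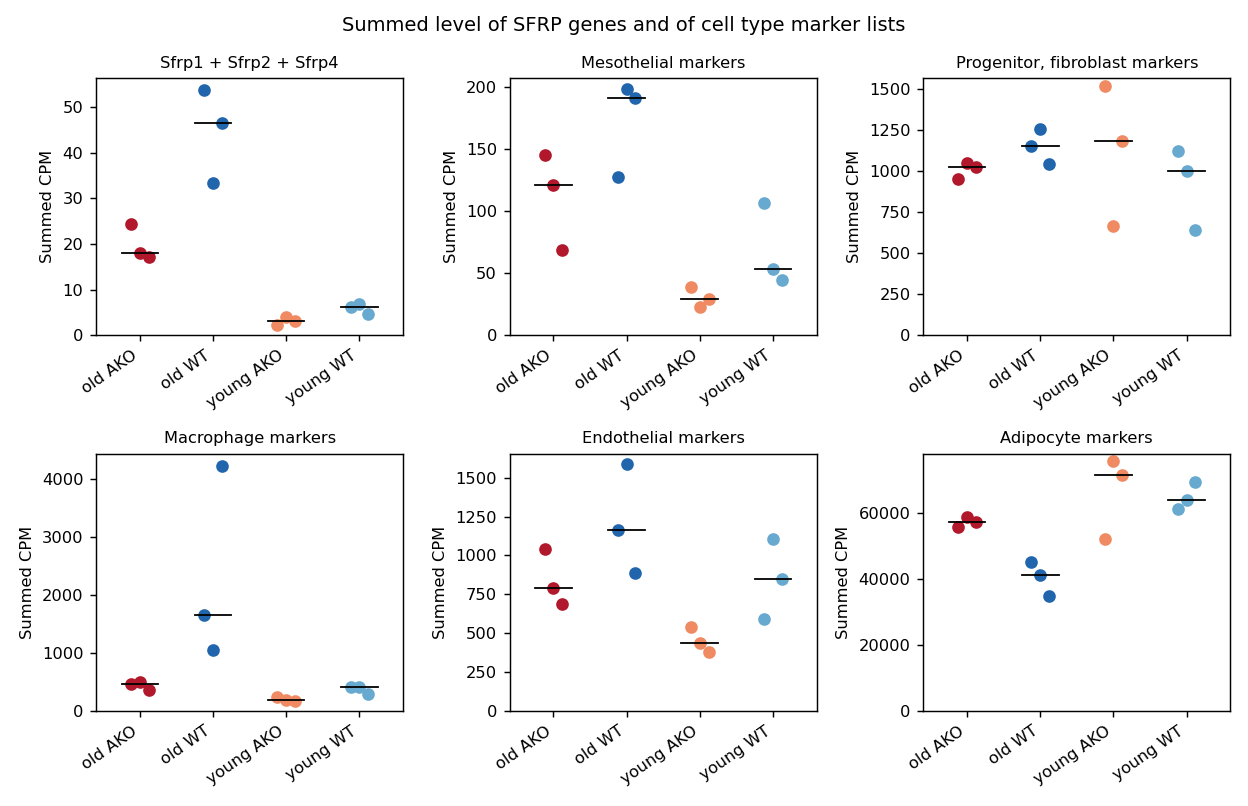
Summed CPM of Sfrp1, Sfrp2 and Sfrp4 and of 5 marker lists, with a point per library and a line for the median of 3 libraries. By median, the SFRP, mesothelial, endothelial and macrophage sums are each highest in old WT and lowest in young AKO. The adipocyte sum is lowest in old WT and highest in young AKO, and the progenitor sums of the 4 groups overlap.

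Other genes of the pathway were taken from 6 lists made by function. Of the 9 other secreted modulators 3 were tested (Sfrp5, Igfbp4 and Trabd2b), and edgeR called 0 in every comparison. An unadjusted p under 0.05 was reached by 2 of these with age in AKO and by 1 with age in WT. DESeq2 called 2 in AKO and 1 in WT, beside 3869 and 4610 of 15068 genes in all. For limma-voom the counts were 0 in AKO and 1 in WT, beside 2548 and 3493 of 15068. Of 11 receptor partners tested, 3 were called with age in AKO and 3 in WT (27.3% in each, beside 18.4% and 22.9% of all genes). Gpc3, a glypican that binds WNT proteins, had 17.01, 11.8 and 9.90 CPM in old AKO, 16.2, 21.2 and 17.6 in old WT, 3.26, 2.68 and 3.84 in young AKO, and 7.32, 7.74 and 4.56 in young WT. Its old libraries all exceeded its young ones, with a log2 difference of 1.99 ± 0.25 in AKO (adjusted p = 0.00218, edgeR) and 1.49 ± 0.25 in WT (adjusted p = 0.00509, edgeR). Lrp4, a receptor that can inhibit WNT signals, rose likewise (1.80 ± 0.33 and 1.70 ± 0.33, adjusted p = 0.00796 and 0.00717, edgeR). The calls of Gpc3 and Lrp4 held under every alternative run.

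Of 20 genes of the destruction complex and the Dishevelled branch, 2 were called with age in AKO, 2 in WT and 1 between old AKO and old WT (10%, 10% and 5%, beside 18.4%, 22.9% and 5.95% of all genes). Dact1, an intracellular regulator of Dishevelled, was in all 3 counts. It had 4.06, 3.50 and 2.69 CPM in old AKO, 7.29, 8.48 and 5.45 in old WT, 1.36, 1.22 and 1.32 in young AKO, and 2.29, 2.37 and 2.17 in young WT, so the 4 groups did not overlap. For Dact1 the log2 difference was 1.39 ± 0.21 with age in AKO (adjusted p = 0.00389, edgeR), 1.64 ± 0.21 with age in WT (adjusted p = 0.00181, edgeR) and -1.05 ± 0.20 in old AKO against old WT (adjusted p = 0.0194, edgeR). The genotype call was lost without any 1 of the old AKO libraries (up to 0.12).

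Of 13 nuclear cofactors, 4 were called with age in AKO, 6 in WT and 2 between old AKO and old WT (30.8%, 46.2% and 15.4%, beside 18.4%, 22.9% and 5.95% of all genes). Bcl9l, a co-activator that bridges beta-catenin to Pygopus proteins, had 66.7, 66.1 and 67.3 CPM in old AKO, 46.02, 44.8 and 36.3 in old WT, 95.2, 110 and 121 in young AKO, and 83.4, 107 and 104 in young WT. It was lower in old libraries of both genotypes, and old AKO lay above old WT. Its log2 difference was -0.70 ± 0.13 with age in AKO (adjusted p = 0.00743), -1.21 ± 0.13 with age in WT (adjusted p = 0.0009) and 0.65 ± 0.13 in old AKO against old WT (adjusted p = 0.0195, all edgeR), the last lost without any 1 of the old AKO libraries or without old WT replicate 3 (up to 0.12). Its relative Bcl9 followed the same order, with 18.9, 18.1 and 20.1 CPM in old AKO, 14.7, 14.2 and 14.8 in old WT, 27.6, 28.7 and 30.6 in young AKO, and 21.9, 22.8 and 23.8 in young WT. Its log2 difference was -0.60 ± 0.08 with age in AKO, -0.65 ± 0.08 with age in WT and 0.39 ± 0.08 in old AKO against old WT (adjusted p = 0.00218, 0.00157 and 0.0214, edgeR). The last was lost without any 1 of the old AKO libraries (up to 0.12).

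Of 12 target and feedback genes, 1 was called with age in AKO, 2 in WT and 1 between old AKO and old WT (8.33%, 16.7% and 8.33%, beside 18.4%, 22.9% and 5.95% of all genes). Cd44, also a surface protein of many immune cells, had 17.4, 14.2 and 13.9 CPM in old AKO, 29.4, 31.1 and 158 in old WT, 9.21, 5.30 and 5.20 in young AKO, and 15.6, 20.1 and 12.2 in young WT. Old WT replicate 3, the library with the highest macrophage sum, stood far above its group mates. The log2 difference of old AKO against old WT was -2.26 ± 0.58 (adjusted p = 0.0454, edgeR), a call lost in 17 of 22 alternatives. Among these were limma-voom, both FPKM fits, the fit with no filter, the block, and the omission of any 1 old AKO or young library (adjusted p up to 0.175). Without old WT replicate 3 the log2 difference was -0.98 (adjusted p = 0.0889, edgeR). Of 11 planar cell polarity genes, 1 (Scrib, lower) was called with age in each genotype (9.09%).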

How the data were processed

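Poly-A RNA of epididymal primary adipocytes was sequenced on a HiSeq4000 after TruSeq mRNA preparation, per the labels' protocols. HISAT2 2.1.0, HISAT, Bowtie2 and StringTie 1.3.4d on mm10 are named in the submitters' processing notes, with no role given. The deposited table by the authors holds an estimated count and an FPKM value for each transcript in each library, per the file headers. Transcript length, treated as a score, stands in the table as deposited by the authors and entered no result. The 12 libraries held 45935795 to 61125366 estimated reads, which limits precision for genes with few reads. The file used had 1 empty line.

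Estimated counts, whole numbers as deposited by the authors, were summed per symbol to 24541 genes, kept by filterByExpr (15068 genes), scaled by TMM and tested with the edgeR 4.0.16 quasi-likelihood test (R 4.3.3) with 1 mean for each group and all 12 libraries in 1 model. P-values are two-sided, adjusted by Benjamini-Hochberg over all genes tested in a comparison, and called under 0.05. The model had 8 residual degrees of freedom and 2.89 prior ones, and the common coefficient of variation was 24.7%. FPKM was summed per gene and used to compare genes and, as log2(FPKM + 1) or log2(FPKM + 0.1), as alternatives in limma 3.58.1. The other alternatives were RLE size factors, DESeq2 1.42.0, limma-voom, other filters, only the groups compared, the replicate number as a block and libraries left out. The edgeR script was tested on simulated data. Python 3.11.15, pandas 2.3.3 and matplotlib 3.10.9 were used.

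The members, lists and alternatives were chosen with earlier results of these data known. Values in every library are given for members called in any comparison and for the 2 members of each role with the highest mean FPKM, and for up to 4 called genes of each other list, of which not all are printed. Folds of uncalled members are given only in part. Fzd6, Fzd2 and Sfrp5 were named after their values were seen. Muc16 of the mesothelial list was not analysed here.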

Additional observations from a re-analysis of the deposited data

How the results depend on the processing

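Over 34 differences of named WNT genes and 740 alternative values, 619 kept their direction and their side of the threshold, 78 kept the direction and were no longer called, 43 became called and 0 changed direction. In young AKO against young WT the count of called WNT genes was 0 by edgeR, 6 by DESeq2, 3 without both libraries that stand apart, and 0 to 1 with each library left out. Over all genes the first 3 of these fits called 147 of 15068, 1365 of 15068 and 856 of 15290. With each library left out, 5 to 464 were called over all genes. In old AKO against old WT the WNT count was 1 by edgeR, 3 by DESeq2, 2 by limma-voom, 4 on log2(FPKM + 1), 2 on log2(FPKM + 0.1), 0 with only the groups compared and 0 to 2 with each library left out. Over all 15068 genes, edgeR called 897 there, DESeq2 1905, limma-voom 614 and the FPKM fits 1139 and 1050. Over all genes 205 were called with only the groups compared, and 4 to 1037 with each library left out. In old AKO against young AKO the WNT count was 9, and 3 to 13 with each library left out (6 to 13 under the other alternatives). Over all genes 2766 were called, 732 to 3771 with each library left out and 1987 to 4100 under the other alternatives. In old WT against young WT the WNT count was 10, 5 with only the groups compared, 4 to 15 with each library left out and 9 to 15 under the rest, and the lowest count came without young WT replicate 3. Over all genes these counts were 3451, 1058, 1511 to 4436 and 2813 to 4610, in the same order. The interaction count was 0 under all alternatives run, with at most 57 called over all genes (DESeq2). With a replicate block the WNT counts were 0 in each genotype comparison, 7 with age in AKO and 9 with age in WT. Over all genes the block fit called 54 at 3 months and 12 at 18 months between genotypes. It called 2210 with age in AKO and 2813 in WT. The replicate numbers did not pair the libraries: 0 of 18 same-number pairs of deviations had a correlation over 0.1 (-0.214 to 0.0902), and 1 of 12 libraries correlated best with its own number. The cause of these changes was not tested. Wif1 and Wnt10b rest on at most 30 reads in any library. Rspo3 and Sfrp4 varied widely among young WT libraries of similar depth, with 8, 81 and 317 reads of Rspo3 and 41, 0 and 2 of Sfrp4, in order of replicate. Calls are limited by 3 libraries per group.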

Other observations

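Sfrp5, an SFRP family member secreted by fat tissue that the naming rule left out, was looked at after its values were seen. It had 315, 197 and 273 CPM in old AKO, 343, 258 and 327 in old WT, 10.5, 16.5 and 13.5 in young AKO, and 409, 4.16 and 3.08 in young WT. All 6 old libraries lay above 5 of the 6 young ones, and young WT replicate 1 lay above every other library. Sfrp5 was not called with age in AKO (log2 difference 4.28 ± 1.45, adjusted p = 0.0625, edgeR) or in WT (1.16 ± 1.28, adjusted p = 0.537, edgeR). Without young WT replicate 1 the log2 difference was 4.27 in AKO (adjusted p = 3.11e-05, edgeR) and 6.41 in WT (adjusted p = 1.39e-05, edgeR). Young WT replicate 1 stood with the old libraries in Wnt11 and nearer to them than its group mates did in Rspo1, Wnt2b, Fzd2 and Rspo3, but with the young ones in Sfrp1, Sfrp2 and Axin2. Fzd2, a receptor, had 8.32, 6.55 and 6.28 CPM in old AKO, 8.88, 7.72 and 6.58 in old WT, 2.56, 3.94 and 3.73 in young AKO, and 6.15, 2.24 and 0.747 in young WT.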
